A study of Mus musculus with 8 samples.

Results

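A set of 8 genes that mark Schwann cells and the nerves of the heart were followed on single-colour arrays of mouse myocardium, the muscle wall of the heart. They were Mbp, Pmp22, Sox10, S100b, Ngfr, Gfra3, Th and Npy, and every array probe whose RefSeq transcript maps to one of these symbols was taken. This gave 11 probes for the 8 genes, out of 39429 probes and 20665 gene symbols on the array, and all 11 passed the filter on dim probes. Each array held total RNA of the myocardium of 1 sample from an untreated male mouse. The labels give 3 arrays as NPRA-/- and 5 as NPRA+/+, from a conditional model with NprA alleles flanked by loxP sites (NprA flox/flox). NPRA, encoded by Npr1, binds the natriuretic peptides of the heart and makes cyclic GMP. The title places the deletion in the heart, while the labels do not name the Cre driver, the age of the mice or the alleles of the NPRA+/+ mice. The replicates are called biological repetitions without naming the mouse each came from, so every p-value measures the spread between these samples. NPRA+/+ replicates 1, 2 and 3 carry the same number in their source names, and whether they share a source is not stated. The fits count them as separate samples, except the one that averages arrays of a shared source name number.

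Schwann cells are the glia of peripheral nerves. Those around large axons wrap them in myelin, a stacked membrane held together by proteins such as myelin basic protein, and those around thin axons (Remak cells) enclose bundles of them without myelin. The heart is supplied mostly by thin autonomic fibres, above all sympathetic ones, which make noradrenaline with tyrosine hydroxylase as the rate-limiting enzyme and co-release neuropeptide Y. The cell bodies of these neurons lie in ganglia outside the heart wall, while the Schwann cells sit along the fibres within it.

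Levels are given as log2 of the processed signal minus log2 of the array's 75th percentile, so that 0 is the level of that percentile, and a change is the NPRA-/- mean minus the NPRA+/+ mean on this scale. The only probe for Npr1, the targeted gene, read -6.42, -5.53 and -5.59 on the 3 arrays labelled NPRA-/- and -4.77, -6.14, -6.55, -6.00 and -5.93 on the 5 labelled NPRA+/+. It did not separate the labels (change 0.03 ± 0.40 SE, limma adjusted p = 0.978) and lay near background, and where it lies relative to the deleted stretch is not given, so every direction below is between arrays as labelled. Between 79.5% and 92.6% of probes were well above background per array. The arrays were scanned on 4 days and had 6 different scan times in the scanner headers. Arrays of the same scan time are called a slide here, without a slide number having been read. Only scan day 1 held both labels (NPRA-/- replicates 2 and 3, NPRA+/+ replicates 2 and 3), and NPRA-/- replicate 1 and NPRA+/+ replicate 1, scanned on days of their own, stood apart from the rest. No slide held both labels, so label and slide cannot be told apart, also on scan day 1. Against the 75th percentile, the median of all changes was 0.21 and 74.97% of all 35329 probes tested had a positive change. The shift was 0.63 in the dimmest quintile of the probes and 0.05 in the brightest, and it was 0.00, -0.08 and 0.37 after quantile normalization, scaling to the median and normexp background correction. The changes of the 8 genes are therefore also given relative to the shift of 0.21.

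The stretches before the start sites of Npy, Pmp22 and Th are shown because Npy and Pmp22 followed each other across the arrays, as described further on, while Npy and Th, made by the same sympathetic neurons, did not. The sequences are RefSeq's for GRCm38.p6, written 5′ to 3′ on the gene's strand and ending at the last base before the start. Capitals mark exact matches, on either strand, to a TATA box (TATAAA), a GC box (GGGCGG), a cyclic AMP response element (TGACGTCA), a SOX site (ACAAAG) or its second form with the letters ACAATG. The 250 bases before Npy lie at chr6:49822460-49822709 (plus strand), those before Th at chr7:142899996-142900245 (minus strand). Pmp22 has 4 listed starts, and 100 bases are shown before start 1 (chr11:63128882-63128981), start 2 (chr11:63131357-63131456) and start 3 (chr11:63132469-63132568), all on the plus strand. The stretch before start 4, which lies downstream of start 3, is not printed.
Npy: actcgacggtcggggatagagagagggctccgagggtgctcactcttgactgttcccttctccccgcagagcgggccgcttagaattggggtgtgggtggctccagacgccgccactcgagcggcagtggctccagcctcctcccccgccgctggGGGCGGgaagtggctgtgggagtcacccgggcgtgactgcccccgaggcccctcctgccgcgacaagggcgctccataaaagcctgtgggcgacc
Th: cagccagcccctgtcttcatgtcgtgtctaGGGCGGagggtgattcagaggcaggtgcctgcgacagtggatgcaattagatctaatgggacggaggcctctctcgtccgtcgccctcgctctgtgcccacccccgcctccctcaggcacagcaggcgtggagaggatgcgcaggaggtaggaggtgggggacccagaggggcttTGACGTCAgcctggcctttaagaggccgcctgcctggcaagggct
Pmp22, start 1: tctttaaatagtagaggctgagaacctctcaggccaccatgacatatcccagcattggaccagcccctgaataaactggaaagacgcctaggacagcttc
Pmp22, start 2: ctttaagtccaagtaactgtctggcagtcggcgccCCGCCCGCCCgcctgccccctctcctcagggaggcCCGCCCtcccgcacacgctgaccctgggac
Pmp22, start 3: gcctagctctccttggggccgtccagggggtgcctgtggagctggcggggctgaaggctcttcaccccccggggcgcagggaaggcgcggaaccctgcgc
The Npy window held 1 GC box, 95 bases before the start. The Th window held 1 GC box at 220 bases and 1 cyclic AMP response element at 45 bases before the start, and the 100 bases before start 2 of Pmp22 held 3 GC boxes, at 65, 61 and 30 bases, the farther pair overlapping. That before start 4 held 1 GC box at 17 bases, and those before starts 1 and 3 held 0. Among 32851 RefSeq windows of 250 bases, 32.7% held a GC box, 1.55% the cyclic AMP response element, 12.4% the TATA box, 16.5% the SOX site ACAAAG and 10.7% its second form, and 24.7% of windows of 100 bases held a GC box. None of the printed windows (0) held the letters of the TATA box or of either SOX site. These matches describe the letters alone.

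The comparison asked whether the glial and nerve genes differ between the myocardium labelled NPRA-/- and NPRA+/+. All 8 genes had a positive fitted change, from 0.08 for Th to 0.76 for Npy with a median of 0.43, beside a median of 0.16 over all genes tested with 1 probe each. No gene of the 8 was called: 0 were higher and 0 lower at an adjusted p under 0.05 (limma, Benjamini-Hochberg over all probes), where 0.32% of all probes were called higher and 0.0283% lower (0.348% either). At an unadjusted p under 0.05, 3 of the 8 (Mbp, Sox10 and Ngfr) had a higher level and 0 a lower one, where 18.3% of all probes were higher, 1.36% lower and 19.7% either. For none of the 8 genes (0) did the labels separate without overlap, where 14.1% of all probes lay higher on all NPRA-/- arrays, 1.29% lower and 15.4% either. Relative to the shift of all probes, 6 of the 8 changes were above 0 with a median of 0.22, and relative to the probes of their own signal quintile 7 were. In whole heart muscle, a difference in the number of Schwann cells or nerve fibres and one in RNA per cell cannot be told apart.

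**Figure D1:**
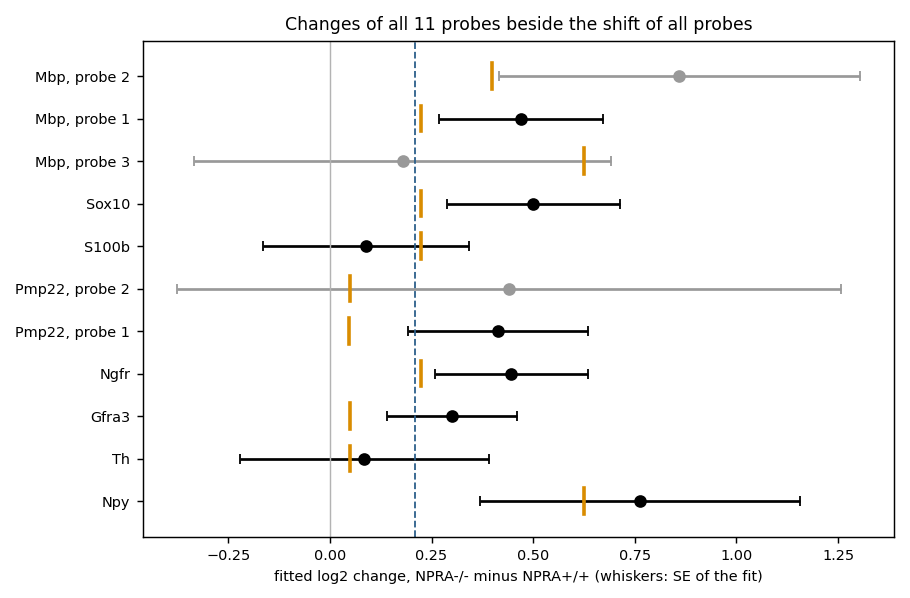
Change (NPRA-/- minus NPRA+/+, log2) with its SE for all 11 probes; black points are the probes that stand for a gene, grey points the other probes, the dashed line is the median of all probes (0.21) and the orange ticks are the median of the probe's quintile by signal. All 11 points lie above 0, and those of Th, S100b and the dimmest Mbp probe lie below the dashed line.

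Mbp encodes myelin basic protein, which seals the inner faces of the myelin membrane. Its brightest probe (A_52_P604195, transcript NM_001025245, chromosome 18) read -2.68, -2.06 and -1.92 on the NPRA-/- arrays and -3.01, -2.66, -2.58, -2.61 and -2.59 on the NPRA+/+ arrays. NPRA-/- replicates 2 and 3 lay above every NPRA+/+ array, whereas NPRA-/- replicate 1 lay among them, and 4 of the NPRA+/+ arrays were within a narrow band with replicate 1 below it. The NPRA-/- mean was -2.22 ± 0.41 (SD, n = 3) and the NPRA+/+ mean -2.69 ± 0.18 (SD, n = 5), a change of 0.47 ± 0.20 SE or 1.38-fold (adjusted p = 0.2495), and 0.26 relative to the shift. On scan day 1 alone, with 2 arrays of each label and each label on its own slide, the change was 0.63. It was called (limma adjusted p = 0.0332), as 15.6% of all probes were called higher in that fit. Without the arrays of scan days 3 and 4 it was 0.62 and called as well (adjusted p = 0.0249), with 11.2% of all probes called higher there.

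A pair of further Mbp probes, both for NM_010777, did not follow the first. Probe A_52_P329451 read -2.93, -2.80 and -3.27 on the NPRA-/- arrays and -4.40, -2.90, -3.06, -4.76 and -4.17 on the NPRA+/+ arrays. The NPRA+/+ values fell into a higher pair, replicates 2 and 3, which overlapped the NPRA-/- arrays, and 3 values more than 1 log2 unit lower, and the change was 0.86 ± 0.44 SE (adjusted p = 0.329). Probe A_55_P1992160 was close to background, above it on 2 of the 3 and 4 of the 5 arrays, and its change was 0.18 ± 0.51 SE (adjusted p = 0.888). Across the 8 arrays, the brightest probe correlated with these by 0.45 and -0.06, and they correlated with each other by -0.53.

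Pmp22 encodes peripheral myelin protein 22, a membrane protein of compact myelin that is also made outside nerves. Its brightest probe (A_55_P2040170, NM_008885, chromosome 11) read 2.99, 2.64 and 2.65 on the NPRA-/- arrays and 2.80, 2.11, 2.04 and 2.42 on NPRA+/+ replicates 1 to 4. The spot on NPRA+/+ replicate 5 carried the scanner's flag for an uneven spot and was left out. NPRA+/+ replicate 1 lay above 2 of the 3 NPRA-/- arrays and the other 3 values below all of them. The change was 0.41 ± 0.22 SE or 1.33-fold (adjusted p = 0.351), 0.21 relative to the shift, with means of 2.76 ± 0.20 (SD, n = 3) and 2.34 ± 0.35 (SD, n = 4). With the uneven spot kept, which read 1.35, the NPRA+/+ mean was 2.14 ± 0.54 (SD, n = 5) and the difference of the means 0.61.

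The other Pmp22 probe (A_55_P2040168) spread over a wider range, from -0.61 to 0.97 on the NPRA-/- arrays and from -1.91 to 1.94 on the NPRA+/+ arrays. Its highest values were those of NPRA+/+ replicate 1 and NPRA-/- replicate 1, and its change was 0.44 ± 0.82 SE (adjusted p = 0.815). It followed the brightest probe across 7 arrays with r = 0.81.

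**Figure D2:**
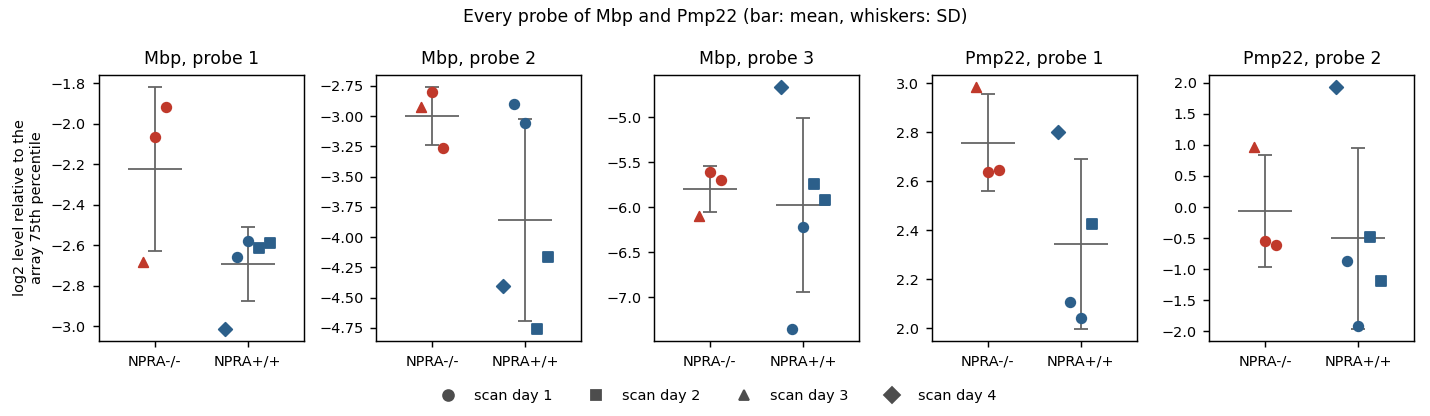
Level on each array (log2 relative to the array's 75th percentile) for the 3 probes of Mbp and the 2 of Pmp22, by label; marker shapes give the scan day, bars the mean and whiskers the SD. The Pmp22 probes share their highest arrays, while the Mbp probes differ in which NPRA+/+ arrays lie low.

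Sox10 encodes the transcription factor that specifies and maintains peripheral glia. Its probe (A_55_P2094729, NM_011437, chromosome 15) read -1.19, -1.57 and -1.51 on the NPRA-/- arrays and -1.43, -1.92, -2.21, -1.80 and -2.27 on the NPRA+/+ arrays. All NPRA+/+ arrays but replicate 1 lay below the NPRA-/- arrays. Sox10 averaged -1.42 ± 0.20 (SD, n = 3) under NPRA-/- and -1.92 ± 0.34 (SD, n = 5) under NPRA+/+, and the change of 0.50 ± 0.21 SE (1.41-fold, adjusted p = 0.245) was 0.29 relative to the shift. Without NPRA+/+ replicate 1 the change was 0.62 with an adjusted p of 0.0552, and 0 of the 8 genes were called in that fit, where 11% of all probes were called higher and 0.529% lower. S100b encodes a calcium-binding protein abundant in Schwann cells and other glia, and in the heart it can also be made by stressed muscle cells. It read -2.61, -2.63 and -1.95 on the NPRA-/- arrays (probe A_51_P468260, NM_009115, chromosome 10) and -2.75, -2.76, -2.73, -2.06 and -2.12 on the NPRA+/+ arrays. High and low values occurred under both labels, the high ones on NPRA-/- replicate 3 and NPRA+/+ replicates 4 and 5. With means of -2.40 ± 0.39 (SD, n = 3) and -2.49 ± 0.36 (SD, n = 5) the change was 0.09 ± 0.25 SE (adjusted p = 0.887) and -0.12 relative to the shift. It was -0.15 after quantile normalization and -0.20 after scaling to the median.

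Ngfr encodes p75, the neurotrophin receptor that sympathetic neurons carry and that Schwann cells make when they lose contact with axons. Its probe (A_52_P236448, NM_033217, chromosome 11) is printed 10 times on each array, so it is the only one of the 8 genes with an error measured within an array, an SE between spots of 0.066 to 0.166. The NPRA-/- arrays read -1.81, -1.70 and -1.62 and the NPRA+/+ arrays -2.42, -1.73, -1.96, -2.40 and -2.27. Only NPRA+/+ replicate 2 reached into the NPRA-/- range. The SD between the spots of an array, 0.198 to 0.526, was about as large as that between NPRA+/+ arrays, and averaging the spots reduces it to the SE above. The means of -1.71 ± 0.09 (SD, n = 3) and -2.16 ± 0.30 (SD, n = 5) gave a change of 0.45 ± 0.19 SE (1.36-fold, adjusted p = 0.242), which was 0.24 relative to the shift. On scan day 1 alone the change was 0.18 (adjusted p = 0.342), less than its value over all arrays.

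Gfra3 encodes the receptor for artemin, a ligand of the GDNF family that guides and sustains sympathetic fibres along blood vessels. It read -0.999, -1.13 and -0.98 on the NPRA-/- arrays (probe A_55_P1984103, NM_010280, chromosome 18) and -1.38, -1.57, -1.49, -0.98 and -1.27 on the NPRA+/+ arrays. NPRA+/+ replicate 4 lay at the level of the highest NPRA-/- array and the other NPRA+/+ arrays lay below all 3. The change was 0.30 ± 0.16 SE (1.23-fold, adjusted p = 0.341), with means of -1.04 ± 0.08 (SD, n = 3) and -1.34 ± 0.23 (SD, n = 5), and relative to the shift it was 0.09.

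Th encodes tyrosine hydroxylase, the first enzyme of noradrenaline synthesis. It read -1.12, 0.06 and 0.07 on the NPRA-/- arrays (probe A_55_P2275249, NM_009377, chromosome 7) and -0.09, -0.43, -0.51, -0.20 and -0.84 on the NPRA+/+ arrays. NPRA-/- replicate 1 was the lowest of all 8 arrays and NPRA-/- replicates 2 and 3 the highest. The means of -0.33 ± 0.68 (SD, n = 3) and -0.41 ± 0.29 (SD, n = 5) gave a change of 0.08 ± 0.31 SE (adjusted p = 0.913), or -0.12 relative to the shift. It was 0.48 (adjusted p = 0.319) without NPRA-/- replicate 1, -0.12 without NPRA-/- replicate 3 and -0.21 after scaling to the median. On scan day 1 alone it was 0.54 and called (limma adjusted p = 0.0342), as 15.6% of all probes were called higher in that fit.

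Npy encodes neuropeptide Y, the co-transmitter of sympathetic fibres, and was the only one of the 8 whose brightest probe fell short of background on some arrays. Its signal was well above background on 3 of 3 NPRA-/- arrays but on 2 of 5 NPRA+/+ arrays, replicates 1 and 5. It read -4.99, -5.86 and -5.45 on the NPRA-/- arrays (probe A_51_P454873, NM_023456, chromosome 6) and -5.28, -6.78, -6.92, -6.16 and -5.84 on the NPRA+/+ arrays. NPRA+/+ replicates 1 and 5 lay within the NPRA-/- range and the other 3 below it. The change was 0.76 ± 0.39 SE (1.70-fold, adjusted p = 0.327), with means of -5.43 ± 0.44 (SD, n = 3) and -6.19 ± 0.68 (SD, n = 5). Among the dimmest quintile of the probes, to which Npy belongs, the median change was 0.63, so that its change was 0.14 relative to that quintile and 0.55 relative to the shift of all probes. On scan day 1 alone the change was 1.19 (limma adjusted p = 0.0294). Both NPRA+/+ arrays of that day, replicates 2 and 3, were among those where Npy was not well above background. Pmp22 had a change of 0.57 there (limma adjusted p = 0.0309), which made 4 called genes with Mbp and Th. In that fit 15.6% of all probes were called higher. With array weights, 6 of the 8 were called (all but S100b and Ngfr), where 24.9% of all probes were called higher.

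Whether the 8 genes vary together was read from their 28 pairs across the arrays. The correlations lay between -0.13 and 0.99 with a median of 0.15, and 22 of the 28 were positive. A pair of them passed an exact permutation test (two-sided) adjusted over the 28 pairs, and both involve Pmp22. Sox10 and Pmp22 correlated with r = 0.98 and rho = 1 over 7 arrays (exact p = 0.000198 and 0.000397, adjusted p = 0.00278 and 0.00556). Pmp22 and Npy correlated with r = 0.99 and rho = 1, with the same exact p-values, which are the smallest that 7 arrays can give. The 3 genes therefore ordered these arrays alike, with NPRA-/- replicate 1 and NPRA+/+ replicate 1 highest and NPRA+/+ replicates 2 and 3 lowest. Npy was not well above background on NPRA+/+ replicates 2, 3 and 4, its lowest arrays, so its order there is that of values near background. Without the 2 arrays farthest from the median of the gene named first, r was 0.97 for Sox10 with Pmp22 and 0.95 for Pmp22 with Npy, and with each label's mean removed it was 0.95 and 0.98. Scan day 1 holds 4 arrays and the other days fewer, too few for a value within a day. Without the 2 arrays that stood apart, 5 remain for these pairs, and their r, given as a description only, was 0.95 and 0.97.

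Those correlations went along with the array itself. The median level of all probes relative to the 75th percentile was -2.60, -2.69 and -2.68 on the NPRA-/- arrays and -2.72, -2.93, -3.00, -3.00 and -3.07 on the NPRA+/+ arrays, with no overlap. Sox10 followed this median with r = 0.93, Pmp22 with 0.88 (7 arrays) and Npy with 0.73, whereas Mbp (0.27), Th (0.17) and S100b (-0.19) did so less. After quantile normalization the values for Sox10 and Pmp22 were 0.89 and 0.88, but that for Npy was 0.30, and in the deposited values it was 0.31. Over 34919 probes the median of such correlations was 0.35, and 6.23% reached at least 0.9. The part of the array median in the correlations was not tested. With the uneven Pmp22 spot kept, over 8 arrays, r was 0.94 for Sox10 with Pmp22 and 0.58 for Pmp22 with Npy. In the deposited values, which include that spot and so also rest on 8 arrays, the same pairs had r = 0.93 and 0.26. Over the 7 arrays they had 0.95 and 0.85 after quantile normalization, 0.94 and 0.95 after scaling to the median, and 0.78 and 0.21 after normexp background correction.

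Sox10 and Npy correlated by 0.78 (exact p = 0.0256, adjusted p = 0.239) over all 8 arrays, and S100b and Gfra3 by 0.66 with rho = 0.88 (exact p for rho = 0.00724, adjusted p = 0.0676). Neither passed the adjustment over the 28 pairs. The myelin gene Mbp had r = 0.07 with Sox10, the factor that drives myelin genes, and r = 0.69 with Ngfr (exact p = 0.0666, adjusted p = 0.462). Th and Npy, the pair of sympathetic transmitter genes, had r = -0.08 (exact p = 0.853), with NPRA-/- replicate 1 lowest for Th and highest for Npy. With each label's mean removed, the median over the 28 pairs was 0.02 and 15 were positive. Leaving out NPRA-/- replicate 1 alone, r was 0.93 for Sox10 with Th, 0.49 for Th with Npy and 0.23 for Mbp with Sox10 (7 arrays). Leaving out NPRA+/+ replicate 1 alone, the same pairs had 0.062, -0.20 and 0.33. The low values of Th with Sox10 and with Npy thus rest on NPRA-/- replicate 1. Without both of these arrays the pairs had 0.97, 0.43 and 0.80 (6 arrays), and the median over the 28 pairs, 7 of which then rest on 5 arrays, was 0.64.

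**Figure D3:**
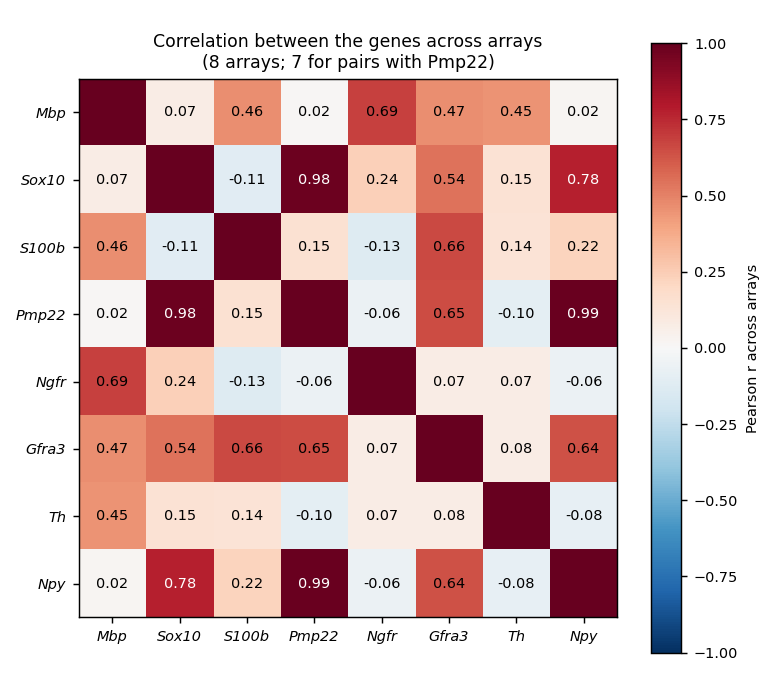
Pearson correlation of each pair of the 8 genes across the arrays (8 arrays, 7 for pairs with Pmp22), from -0.13 to 0.99. The highest values are those of Pmp22 with Npy (0.99) and with Sox10 (0.98), while Th with Npy is at -0.08.

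The genes whose levels were most like those of each of the 8 were also looked up. Among 21137 probes above background on every array (21201 for Pmp22), the highest correlations were 0.99 for Mbp with Slc37a2 and Pate14, 0.99 for Sox10 with Klra16 and Cyp4a31, and 0.98 and 0.97 for S100b with Cacna2d2 and Mdn1. Pmp22 was followed by Dcpp3 and Itih4 (both 0.99, 7 arrays), and Npy by Itih2 and Itih4 (0.98 and 0.97), so that Itih4 was near the top for both. The highest were 0.98 for Ngfr with Ttc12 and Parn, 0.98 and 0.97 for Gfra3 with Slc9a7 and Baiap2, and 0.99 and 0.98 for Th with Zfp652os and Ackr1. With 8 arrays and this many probes such values describe likeness over these arrays and nothing more.

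The other genes of the glial and nerve programmes were read from lists of genes known for each role. Of 16 myelin genes, 14 were tested, all 14 had positive changes (median 0.45, from 0.03 to 0.96), and none (0) was called, with 4 at an unadjusted p under 0.05 in the higher direction, where 18.3% of all probes were and 74.97% were positive. They include Mbp and Pmp22. Ugt8a, the enzyme that makes the galactolipids of myelin, had a change of 0.52 ± 0.15 SE (adjusted p = 0.122) with no overlap between the labels.

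Of 13 genes of Schwann cell identity, all 13 were tested, 11 had positive changes (median 0.30), 0 were called and 4 were higher at an unadjusted p under 0.05 (18.3% of all probes). Gpr37l1, an orphan receptor of glia, had the smallest p among them, with a change of 0.69 ± 0.16 SE (adjusted p = 0.0867) and means of -2.18 ± 0.14 (SD, n = 3) and -2.87 ± 0.23 (SD, n = 5) that did not overlap. Erbb3, the receptor through which neuregulin from axons keeps Schwann cells alive, had a change of 0.54 ± 0.19 SE (adjusted p = 0.169), also without overlap. Among genes of Remak cells and satellite glia, 10 of 11 tested had positive changes (median 0.29), 0 were called and 1 was higher at an unadjusted p under 0.05. Sostdc1 had a change of 0.74 ± 0.37 SE (limma adjusted p = 0.319) at its brightest probe and of 0.24 ± 0.18 SE at its other probe. Of the genes that Schwann cells switch on after nerve injury, 7 of 8 tested had positive changes, with a median of 0.22, and 0 were called or at an unadjusted p under 0.05. Over all probes, 74.97% had positive changes and 0.348% were called.

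On the side of the nerve, 15 of 16 genes of noradrenergic neurons were tested, 13 had positive changes with a median of 0.19 near that of all genes, and 0 were called. At an unadjusted p under 0.05, 2 were higher. Over all probes, 74.97% had positive changes, 0.348% were called and 18.3% were higher at that threshold. Dbh, which turns dopamine into noradrenaline, had means of 1.39 ± 0.35 (SD, n = 3) and 1.54 ± 0.24 (SD, n = 5) and a change of -0.15 ± 0.21 SE (adjusted p = 0.738). Chga, a protein of secretory granules, had a change of 0.55 ± 0.14 SE (adjusted p = 0.103) without overlap. Slc6a2, the noradrenaline transporter, was near background, above it on all 3 NPRA-/- and 2 of the 5 NPRA+/+ arrays, with a change of 1.32 ± 0.55 SE (adjusted p = 0.235).

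Among 16 genes of neurons and axons in general, 11 had positive changes (median 0.18), where 74.97% of all probes did. At an unadjusted p under 0.05, 5 were higher and 1 was lower, beside 18.3% and 1.36% of all probes. Among the 5, Syt1 was not well above background on any NPRA+/+ array (0 of 5). It passed the filter through the NPRA-/- arrays alone, which favours a higher NPRA-/- level. By adjusted p, 1 was called, where 0.348% of all probes were. That was Nefl, the light neurofilament of axons. It read -3.46, -3.06 and -3.18 on the NPRA-/- arrays and -4.18, -4.14, -4.36, -4.05 and -4.21 on the NPRA+/+ arrays. The lowest NPRA-/- array lay above the highest NPRA+/+ array, and the change was 0.95 ± 0.14 SE (adjusted p = 0.04998). It was positive under all 24 alternatives (0.59 to 1.13) and no longer called under 18 of them, with an adjusted p of 0.448 after quantile normalization and 0.136 with the repetition number as a block. Rbfox3, a splicing factor of mature neurons, had a change of 0.997 ± 0.18 SE (limma adjusted p = 0.0629) at its brightest probe. Its other tested probes gave 1.02 ± 0.22 SE and, near background, -0.03 ± 0.53 SE. Elavl4, a neuronal RNA-binding protein, had a change of -0.79 ± 0.24 SE (adjusted p = 0.132). For Elavl4 and the brightest Rbfox3 probe the labels did not overlap.

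Of 26 ligands and receptors of the neurotrophin, GDNF and neuregulin families, which include Ngfr and Gfra3, 25 were tested, 19 had positive changes (median 0.22) and 0 were called. At an unadjusted p under 0.05, 4 were higher. Over all probes, 74.97% had positive changes, 0.348% were called and 18.3% were higher at that threshold. Ntrk3, the receptor for neurotrophin-3, had a change of 0.60 ± 0.14 SE (limma adjusted p = 0.0815) at its brightest probe. Its other tested probes gave 0.47 ± 0.20 SE and 0.18 ± 0.22 SE. Pspn, the GDNF family ligand persephin, had a change of 0.59 ± 0.15 SE (adjusted p = 0.0954). For Pspn and the brightest Ntrk3 probe the labels did not overlap. In the neuropeptide Y system, 11 of 12 genes had positive changes with a median of 0.51, 0 were called and 3 were higher at an unadjusted p under 0.05. Of these 12 genes, 6 were well above background on every array. The receptor genes Npy6r and Npy5r had changes of 1.27 ± 0.26 SE (adjusted p = 0.0728) and 1.21 ± 0.26 SE (adjusted p = 0.0756), both close to background. Npy5r was not well above background on any NPRA+/+ array (0 of 5), so it passed the filter of 3 arrays through the NPRA-/- arrays alone. The filter thus favoured a higher NPRA-/- level for Npy5r, and its change and p-value are given as a description. Its mean signal on the NPRA-/- arrays was at least 1.48-fold (0.56 in log2) above the lowest signal well above background on the NPRA+/+ arrays. In the dimmest quintile of the probes, to which Npy5r belongs, the median change was 0.63.

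Markers of the other cell types in heart muscle were read beside the nerve genes. The 9 markers of heart muscle cells were well above background on every array, with mean levels of 5.02 to 6.55 on the NPRA-/- and 4.66 to 6.17 on the NPRA+/+ arrays (median change 0.60, 0 called). Those of fibroblasts lay at 2.14 to 2.51 and 1.96 to 2.22 (median change 0.27, 0 of 8 called). The 7 mesothelial markers had a median change of 2.06, with mean levels of -3.74 to -2.87 against -5.39 to -4.72. Only 3 of the 7 were well above background on every array. Upk3b, Lrrn4 and Krt19 were so on 1, 2 and 2 of the 5 NPRA+/+ arrays, where their levels thus lie near background. Of the 7 markers, 1 was called (Msln, 2.48 ± 0.36 SE, limma adjusted p = 0.0498, no longer called under 18 of 24 alternatives), where 0.32% of all probes were called higher. Markers of thymocytes (median change 0.57, 3 of 6 higher at an unadjusted p under 0.05), fast skeletal muscle (0.63, 2 of 8) and adipocytes (0.45, 0 of 5) had medians as large as that of the nerve genes, with 0 called. Over all probes, 18.3% were higher at that threshold. Some of these markers, such as Rag1 and Actn3, lie in the dimmest quintile of the probes, whose median change was 0.63. The medians of the macrophage (0.16), smooth muscle (0.15), endothelial (0.07) and erythroid (-0.01) markers lay lower, with 0 called too. The mean level of the 7 nerve genes with a value on every array was -2.20 to -1.91 on the NPRA-/- and -2.63 to -2.31 on the NPRA+/+ arrays. The part of RNA from any of these cells in the changes of the nerve genes was not tested.

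**Figure D4:**
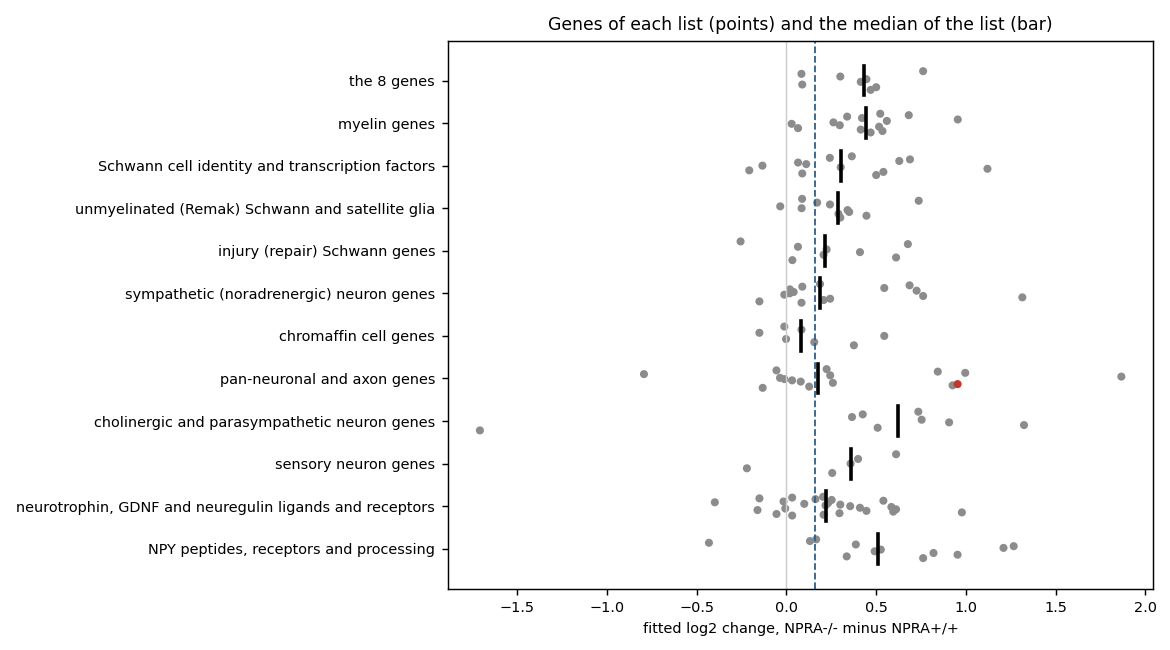
Change (NPRA-/- minus NPRA+/+, log2) of every tested gene among the 8 genes and the glial and nerve lists. Black bars are the list medians, the dashed line the median of all genes (0.16), and red points the genes at an adjusted p under 0.05. The only red point is Nefl at 0.95, and the list with the highest median is that of cholinergic neurons (0.62). The lists of markers of other cell types are not drawn.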

How the data were processed

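Total RNA of 8 samples (3 labelled NPRA-/-, 5 labelled NPRA+/+) was amplified, labelled with Cy3 and hybridised to Agilent mouse arrays, per the labels' protocols. Spot intensity on a linear scale, background-subtracted but unscaled across arrays, comes from the authors' files (Agilent Feature Extraction 11.0.1.1, per the submitters' processing notes and the file headers). The deposited series table holds log2 values, and how they were normalized is not stated. Ranks of probes in a column and its array correlated by 0.999 or more, and each column's median was 7.04. Of its 39485 entries, 56 matched no probe and were set aside.

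After removal of control spots and of spots flagged as outliers, log2 values were averaged per probe and each array's 75th percentile was subtracted. The test covered 35329 probes that were well above background on 3 or more of 8 arrays and left out 4100. Saturated spots numbered 0, and precision is limited by how few arrays there are. Gene symbols were taken from RefSeq (GRCm38.p6) by transcript (27242 probes with 1 symbol, 12187 with none), and the brightest probe stood for a gene. The array design names another build, so probe coordinates are not given. The two-sided limma test (version 3.58.1, R 4.3.3, lmFit and eBayes) set NPRA-/- against NPRA+/+, with p-values adjusted by Benjamini-Hochberg across the 35329 probes and a threshold of 0.05. Correlations were tested by exact permutation of the pairings.

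The 8 genes and the gene lists were chosen with earlier results of these data known. The text names all 8 genes and, of each list, genes past the threshold, genes of smallest p or of highest level, and for each of the 8 the 2 named genes of highest r. Some genes that this rule names are not reported here. Genes of smallest p in a list are examples, and the count and median describe the list.

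Deviations from the label's mean of samples with the same repetition number correlated by 0.63, 0.28 and 0.36 across probes, which passes the rule for pairing (each over 0.1). Samples of unequal number passed too (for example 0.33 for NPRA-/- replicate 3 with NPRA+/+ replicate 2), and the labels do not state that a number links samples of unlike genotype. Array correlations lay between 0.952 and 0.993 and no arrays were identical. On simulated data of this size (35329 probes), 32%, 74%, 82% and 98% of probes changed by 1, 2, 3 and 4 on the log2 scale were called, and 8 of 151 calls were false. The simulated noise was independent between probes and arrays, without a shift of all probes or a slide effect. These rates therefore need not hold for the real arrays.

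Other settings tried were normexp (offset 50), quantile and median scaling, stricter and no filters, the deposited table, scan day, slide and replicate numbers as blocks, array weights, a trended robust variance, averaging over a gene's probes and leaving out each array. Leaving out scan days 3 and 4 and keeping the uneven Pmp22 spot were added after seeing the data.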

Additional observations from a re-analysis of the deposited data

Results flagged for a closer look

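The brightest Mbp probe read -3.01 on NPRA+/+ replicate 1, below the other 4 NPRA+/+ arrays, which lay between -2.66 and -2.58. Its gap to the nearest of them was a share of 0.818 of the whole range, above the critical value of 0.71 for 5 samples. Of 11 sets of NPRA+/+ values tested this was the only one (1), and chance marks about 1 set in 20. That array was the only one scanned on its day, and its Mbp level leaves a change of 0.39 (adjusted p = 0.217) when it is left out.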

How the results depend on the processing

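The number of probes called higher and lower, 113 and 10, depended on the setting, while 0 of the 8 genes were called in most. Counts were 0 and 0 after quantile normalization, scaling to the median and normexp, in the deposited table, with scan day or slide as a block, with arrays of a shared source name number averaged, with a trended robust variance, and with the replicate block by repetition number. The limma fits just named had, by unadjusted p (under 0.05), 2848, 4136, 10514, 2876, 9542, 3536, 8779, 6691 and 7788 probes. The paired fit by repetition number gave the 8 genes a median change of 0.44 with 0 called, and the block by source name number left 1 higher and 21 lower; the blocks changed no call of the 8. The counts were 3 and 0 for probes above background on all arrays, 183 higher without a filter, 177 higher after averaging a gene's probes, 5494 and 485 on scan day 1 alone, 8808 and 749 with array weights, and 3954 and 180 without scan days 3 and 4. Leaving out 1 array gave 0 to 3901 higher and 0 to 187 lower, above 0 only without NPRA+/+ replicate 1. Of the 8 genes, 4 were called on scan day 1 alone, 6 with array weights (Mbp 0.62, Sox10 0.50, Pmp22 0.51, Gfra3 0.38, Th 0.51, Npy 0.93) and 1 without scan days 3 and 4 (Mbp). Their median change of 0.43 was 0.21 after quantile normalization, 0.16 after scaling to the median and 0.22 in the deposited table, but relative to the shift of all probes it was 0.21, 0.24 and 0.21, and 0.04 after normexp. The median pairwise r of 0.15 was 0.018 after quantile normalization, 0.017 after scaling to the median, 0.41 after normexp, 0.64 without scan days 3 and 4, and 0.052 to 0.43 with 1 array left out. S100b turned to -0.15 (quantile), -0.20 (median scaling), -0.14 (deposited table), -0.019 (slide), -0.054 (source name block) and -0.087 (averaged arrays), and ranged from -0.14 (without NPRA-/- replicate 3) to 0.21 with 1 array left out. Th turned to -0.21 (median scaling) and -0.11 (slide), and ranged from -0.12 (without NPRA-/- replicate 3) to 0.48. Dbh turned to 0.062 with scan day as a block or scan day 1 alone and 0.0075 without scan days 3 and 4, and ranged from -0.31 to 0.039 (without NPRA-/- replicate 1). For these turns, the cause was not tested. The other 6 genes kept a positive change under every alternative that gave a value (Npy gave none where all arrays had to be above background). Npy and the third Mbp probe, near background, are the least well measured.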

Other observations

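The heart also holds cholinergic neurons of the cardiac ganglia. Of 10 such genes 8 were tested, 7 had positive changes (median 0.62) and 0 were called, where 74.97% of all probes had positive changes and 0.348% were called. By unadjusted p (under 0.05), 3 were higher and 1 was lower, where 18.3% of all probes were higher and 1.36% lower. Chat, which makes acetylcholine, read 1.599, 1.28 and 1.38 on the NPRA-/- arrays and 4.77, 2.26, 2.47, 3.06 and 3.09 on the NPRA+/+ arrays. Every NPRA+/+ array lay above every NPRA-/- array, and the change was -1.71 ± 0.52 SE (limma adjusted p = 0.130). Without NPRA+/+ replicate 1, the highest, it was -1.30 (adjusted p = 0.0246), where 0.529% of all probes were called lower. Ache, which breaks acetylcholine down, had a change of 1.32 ± 0.26 SE (adjusted p = 0.0693) at its brightest probe, also without overlap, and of 0.02 ± 0.39 SE at its other probe.

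Genes of sensory neurons and of chromaffin cells were read in the same way. Of 8 sensory genes 5 were tested, 4 had positive changes (median 0.36), 0 were called and 1 was higher at an unadjusted p under 0.05. Of 7 chromaffin genes, which include Th and Dbh, 4 had positive changes (median 0.08), 0 were called and 2 were higher at that threshold. Over all probes, 74.97% had positive changes, 0.348% were called and 18.3% were higher at that threshold.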
